A study of Vulpes vulpes with 8 samples.

Results

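The genes described here are 36 genes of T cells and cytotoxic lymphocytes, chosen by symbol as 18 T cell identity genes, 9 helper and regulatory genes and 9 cytotoxic genes, out of 15115 genes that the array annotation names. A gene was read through a probe set annotated with its symbol alone, and where it had several, through the probe set with the highest mean log2(signal + 16) over all arrays. By that rule 33 of the 36 genes had a probe set, and 26 of them, 15 identity, 6 helper and regulatory and 5 cytotoxic genes, were bright enough on average to enter the test. ZAP70, the kinase that binds the phosphorylated T cell receptor, GNLY, a granule protein that damages membranes, and KLRB1, a lectin-like receptor of NK and T cells, had no such probe set. Signal is the linear brightness of a probe set.

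The samples were pieces of gingiva from 8 red foxes (Vulpes vulpes), 5 with hereditary hyperplastic gingivitis (HHG), an inherited overgrowth of the gum, and 3 without it, with 1 dog array (Affymetrix Canine 2) per fox. The affected foxes were males 19, 55 and 107 and females 381 and 757, and the unaffected foxes were males 86 and 97 and female 402. HHG was diagnosed from early, visible changes of the gum along the teeth, so the affected group stands for that early appearance. Some pieces were taken after death in the pelting season and others under anaesthesia in late spring, but the labels do not say which fox belongs to which season, so season could not be tested. No genotype, treatment or age of the foxes is given in the sources used here.

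T cells recognise peptides through a receptor whose signal is passed on by the CD3 and CD247 chains, the kinases LCK and ZAP70 and the adaptor LAT. CD4 and CD8 are the co-receptors that divide the cells into helper and cytotoxic classes, and costimulatory and inhibitory receptors such as CD28 and CTLA4 set the strength of the response. Cytotoxic T cells and NK cells kill by releasing perforin and granzymes, and T cells are part of the normal immune population of the gum, where they increase during gingival inflammation.

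Foxes 86 and 19 stood apart on these genes. Unaffected fox 86 gave the highest reading in 18 of the 26 genes that entered the test, and affected fox 19 the lowest in 17. Values without fox 86 or fox 19 therefore accompany many of the group results, and ranges with each fox left out in turn are given further on. Background was read on each array from 42 probe sets for bacterial transcripts, and ran from 7.42 to 16.6. The deposited values had the same trimmed mean of 150.0 on every array, and 63.4% to 74.7% of probe sets lay above background. Keratinocyte markers, expected in a gum sample with epithelium, gave a summed signal of 20828 to 36910.2 among affected and 10978 to 34449 among unaffected foxes, with 7 of 9 above background on every array.

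**Figure D1:**
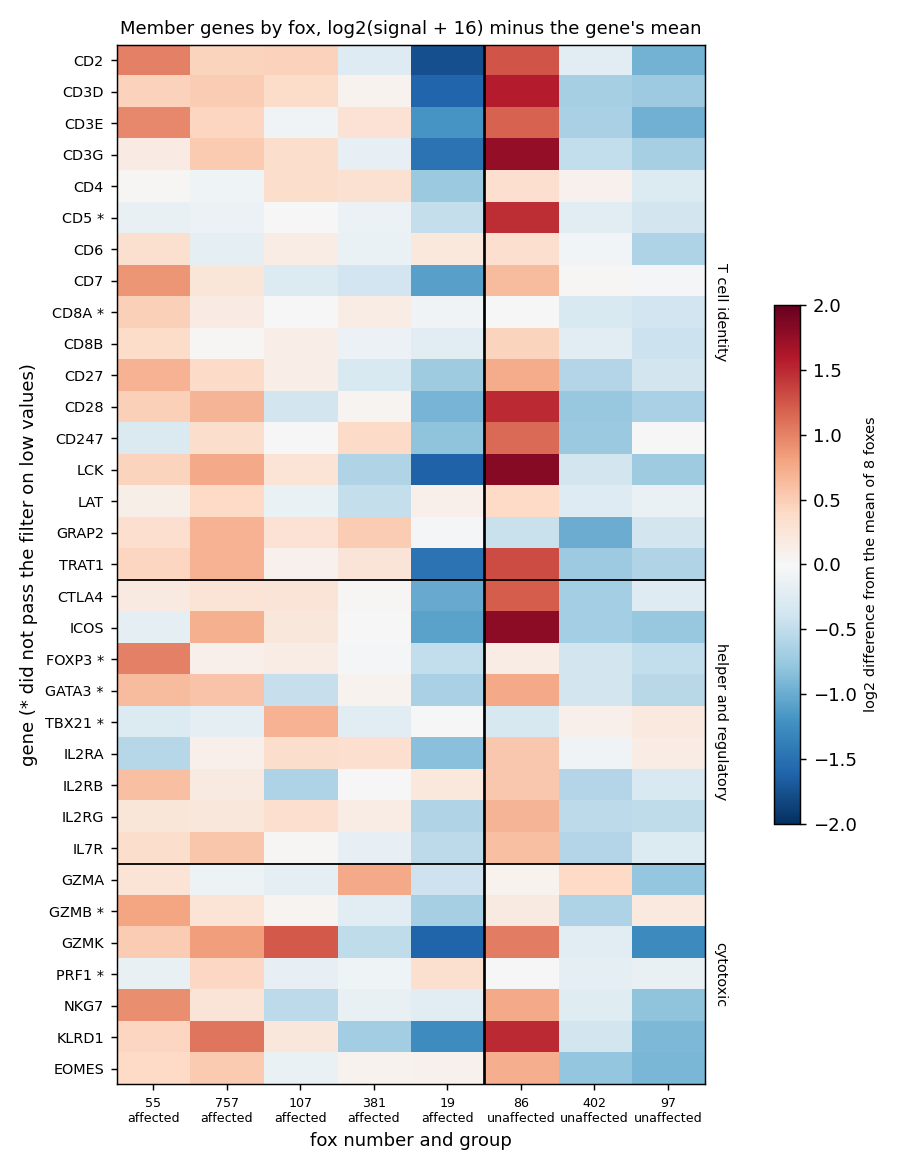
Heat map of the 33 genes with a probe set (rows, in the 3 lists; an asterisk marks the 7 that did not enter the test) in each fox (columns; affected left of the line, unaffected right). Colour is log2(signal + 16) minus the gene's mean over 8 foxes; fox 86 is high and fox 19 low across most rows of the identity list, while GRAP2 is low in all 3 unaffected foxes.

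Between affected and unaffected gingiva, none of the 26 genes passed the threshold of an adjusted p under 0.05 in limma, and neither did any of the 25754 probe sets tested (0 percent called in each case). At an unadjusted p under 0.05 there was 1 of the 26, GRAP2, beside 275 of all 10824 genes tested, 2.54 percent. Of the 26 genes 14 had a higher and 12 a lower mean in affected foxes, where 45.3 percent of all genes had a higher mean. The median log2 difference, affected minus unaffected, was 0.0010 over the 26 genes and -0.026 over all genes tested. It was 0.52 without unaffected fox 86, -0.25 without unaffected fox 97, -0.14 without unaffected fox 402 and 0.18 without affected fox 19. In such bulk samples fewer T cells and less RNA per T cell cannot be told apart.

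Per-fox signals are given below in a fixed order: affected foxes 19, 55, 107, 381 and 757, then unaffected foxes 86, 97 and 402. Differences are affected minus unaffected on the log2(signal + 16) scale with the standard error of limma, and the adjusted p of each of the 26 genes was 0.9999. Since the offset of 16 is large beside dim signals, these differences understate changes of dim probe sets.

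Of the 15 identity genes tested, 7 had a higher and 8 a lower mean in affected foxes, with a median difference of -0.048. That median was 0.46 without fox 86, 0.16 without fox 19 and -0.27 without fox 97. Among the chains of the T cell receptor complex, CD3D read 37.7, 207, 192, 154 and 214 in affected foxes and 461, 81.3 and 85.5 in unaffected foxes. Affected fox 19 was lowest and unaffected fox 86 highest, and the 4 remaining affected foxes lay above the 2 remaining unaffected foxes. Foxes 19 and 86 were picked from these same readings. Setting them aside favours that order, so it is no sign of a group difference. The difference was -0.090 ± 0.61 (SE), and it was 0.67 without fox 86, 0.30 without fox 19, -0.48 without fox 97 and -0.45 without fox 402. CD3E gave 21.0, 146, 63.2, 85.8 and 96.6 in affected and 173, 26.6 and 37.4 in unaffected foxes. Its order of foxes again had fox 86 at the top and fox 19 at the bottom, and the groups overlapped. The difference of CD3E was 0.23 ± 0.55 (SE), or 0.89 without fox 86 and -0.18 without fox 97. For CD3G the signals were 7.50, 57.5, 67.4, 42.1 and 77.8 against 205, 25.4 and 30.3, with fox 19 at background. The CD3G difference was -0.32 ± 0.59 (SE), or 0.46 without fox 86 and -0.75 without fox 97. CD247, the zeta chain that carries most of the receptor's signalling motifs, ran from 9.15 to 41.5 in affected and from 10.3 to 80.8 in unaffected foxes, and differed by -0.20 ± 0.41 (SE). In RefSeq's fox gene table (assembly VulVul3) CD3G, CD3D and CD3E are direct neighbours, and their readings also kept nearly the same order of foxes.

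The co-receptors varied less than the CD3 chains. CD4 read 24.1, 51.9, 69.2, 66.9 and 46.7 in affected and 68.4, 39.3 and 54.6 in unaffected foxes. Fox 19 was again lowest, but affected fox 107 was highest, just above fox 86. The difference was -0.077 ± 0.27 (SE). CD8B, the beta chain of the cytotoxic co-receptor, gave 34.3, 59.6, 47.7, 37.7 and 43.2 against 63.8, 27.5 and 34.5, a difference of 0.098 ± 0.23 (SE). Its highest reading exceeded its lowest by 0.87 on the log2 scale, where the same range was 3.15 for CD3D and 1.09 for CD4. CD8A, the alpha chain and the defining marker of cytotoxic T cells, read 7.13, 17.7, 8.14, 11.1 and 11.3 against 8.12, 2.77 and 3.62. That probe set was above background on 2 of 8 arrays, in affected foxes 55 and 381, and did not enter the test. CD8A and CD8B are neighbours in the fox gene table. Whether the dog probes of CD8A bind the fox transcript was not tested, so its readings give no level of CD8A in these samples.

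Among the surface receptors, CD2, an adhesion receptor of T and NK cells, read 39.0, 362, 242, 140 and 239 in affected foxes and 430, 80.8 and 145 in unaffected foxes. The lowest was fox 19, the highest fox 86, and unaffected fox 402 lay between affected foxes 381 and 757. The CD2 difference was -0.050 ± 0.63 (SE), with 0.56 without fox 86 and -0.54 without fox 97 as the extremes when any fox was left out. CD6, a scavenger-receptor family member that tunes T cell activation, gave 47.2, 52.8, 44.7, 33.8 and 31.9 against 52.9, 19.6 and 36.7. Here fox 19 was not low, and unaffected fox 97 lay below all other foxes. The CD6 difference was 0.19 ± 0.24 (SE). CD5, its neighbour in the fox gene table and an inhibitor of receptor signalling, was above background in fox 86 alone, at 58.0, and ran from 3.10 to 10.4 elsewhere, so it did not enter the test. CD7, an immunoglobulin-like receptor of T and NK cells, read 13.2, 98.4, 35.1, 31.2 and 57.2 against 79.6, 44.2 and 46.5. Affected foxes 55 and 19 formed its top and bottom, enclosing the unaffected group, and it differed by -0.33 ± 0.39 (SE), or by -0.58 without fox 55 and -0.085 without fox 19.

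The costimulatory receptors CD27 and CD28 followed the CD3 chains from fox to fox. CD28, which delivers the signal that accompanies receptor engagement, ran from 4.89 in fox 19 to 48.3 in fox 757 among affected foxes and read 96.1, 9.50 and 7.70 in unaffected foxes. CD27, a receptor of the TNF receptor family, ran from 6.83 to 44.2 in affected and from 8.94 to 46.4 in unaffected foxes. They differed by -0.048 ± 0.53 (SE) and 0.11 ± 0.37 (SE).

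Of the proximal signalling proteins, LCK, the kinase that phosphorylates the CD3 chains, read 3.46, 66.0, 56.5, 23.5 and 85.9 in affected and 196, 20.6 and 30.3 in unaffected foxes. Its range of 3.44 on the log2 scale was the widest of the 26 genes, from fox 19, at background, to fox 86. The difference was -0.39 ± 0.65 (SE), or 0.40 without fox 86 and -0.87 without fox 97. TRAT1, an adaptor that associates with the receptor complex, gave 9.66, 80.2, 59.7, 68.9 and 99.0 against 161, 31.1 and 27.2. Apart from foxes 19 and 86 its affected readings all exceeded the unaffected ones, as with CD3D. Here too, setting aside the extremes of these readings favours that order. Fox 19 is affected and fox 86 unaffected, so both lowered the difference. It was 0.0018 ± 0.56 (SE), or 0.66 without fox 86 and -0.36 without fox 402. LAT, the membrane adaptor that gathers the signalling complex, read 71.6, 72.7, 58.4, 42.4 and 91.2 against 91.2, 58.3 and 52.1, a difference of 0.00021 ± 0.24 (SE). Fox 19 was not low for LAT, and affected fox 381 gave the lowest reading.

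GRAP2, also called GADS, the adaptor that links LAT to the next scaffold of the cascade, was the exception among the 26 genes. It read 27.0, 39.5, 37.9, 47.0 and 55.5 in affected and 16.6, 18.2 and 6.29 in unaffected foxes. Every affected fox lay above every unaffected fox, and fox 402 was at background. The means were 41.4 ± 10.6 (SD, n = 5) and 13.7 ± 6.47 (SD, n = 3). The log2 difference was 0.96 ± 0.22 (SE), with an unadjusted p of 0.00145 and an adjusted p of 0.9999 in limma. Without overlap between the groups there was 1 higher and 0 lower among the 26 genes, beside 1.12 percent higher and 1.32 percent lower among all genes tested (2.44 percent in either direction), a share at which 1 gene among 26 is close to the background. The difference lay between 0.76 and 1.07 when any fox was left out.

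The other probe sets of GRAP2 did not separate the foxes. The first of them read 15.4, 27.7, 7.45, 28.7 and 12.8 against 47.6, 5.82 and 2.50, with unaffected fox 86 above all affected foxes. The second read 14.1, 15.1, 13.9, 28.5 and 14.6 against 16.4, 4.37 and 7.75, with fox 86 above 4 of the 5 affected foxes. Their differences were 0.18 and 0.39 where the probe set that stands for the gene gave 0.96, and over 8 foxes their correlations with it were 0.30 and 0.63. Each of the 2 was above background on 5 of 8 arrays.

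**Figure D2:**
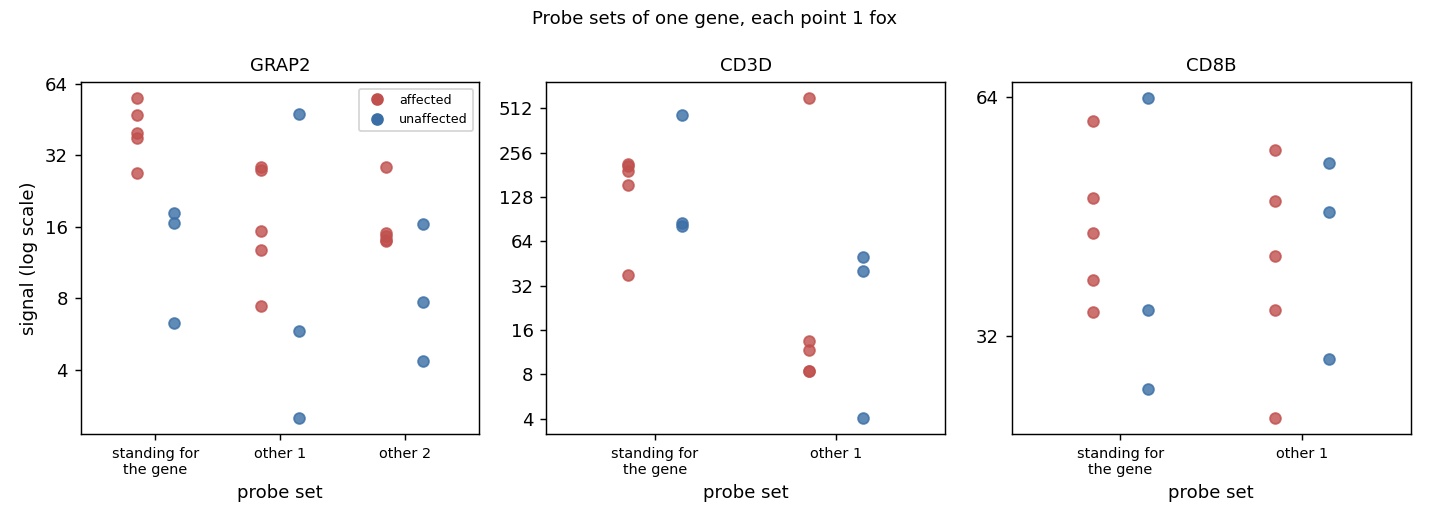
Signal (log axis) of each probe set of GRAP2, CD3D and CD8B, each point 1 fox (affected left and red, unaffected right and blue; no mean or error is drawn). The first GRAP2 probe set separates the groups and its others do not; the other CD3D probe set has affected fox 55 far above the remaining foxes at 599.

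Other genes with more than 1 probe set varied in how well these matched. The second probe set of CD2 followed the first with a correlation of 0.97 over 8 foxes, that of LCK with 0.91, and those of CD3E and CTLA4 with 0.87 each. Even so, the group difference changed sign between probe sets for CD2 (-0.050 and 0.18), LCK (-0.39 and 0.040) and CTLA4 (-0.15 and 0.37). For CD3E it was 0.23 and 0.29. Among less well matched probe sets the sign changed for CD3D (-0.090 and 0.24), CD4 (-0.077 and 0.16), CD8B (0.098 and -0.065) and IL7R (0.14 and -0.088). It also changed for LAT and TRAT1, and with dim probe sets of GZMK, CD8A and IL2RB. The second probe sets of LCK and CTLA4 were above background on 3 and 5 arrays. The second probe set of CD3D read 8.40, 599, 8.41, 13.5 and 11.8 in affected foxes and 40.05, 4.02 and 50.5 in unaffected foxes. Fox 55 stood far above the rest there, and the correlation with the first probe set was 0.31. The 2 probe sets of CD8B had a correlation of -0.37, though both were above background on at least 6 arrays. For CD6 the correlation was 0.11 and for CD4 0.56. The readings of CD4, CD6 and CD8B thus depend on the probe set used.

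**Figure D3:**
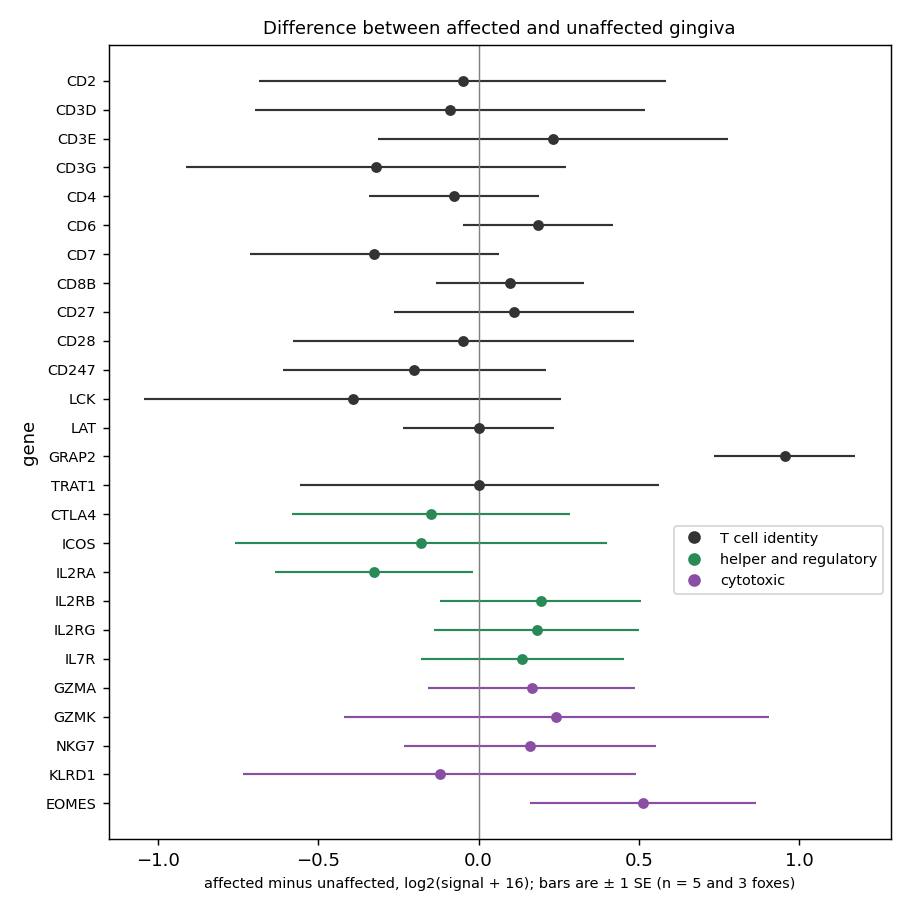
Log2 difference (affected minus unaffected, horizontal axis) of the 26 tested genes (vertical axis), coloured by list, with bars of 1 SE (n = 5 and 3 foxes). All bars but those of GRAP2, EOMES and IL2RA cross 0, and GRAP2 at 0.96 lies farthest from it.

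In the helper and regulatory list, 3 of 6 tested genes had a higher and 3 a lower mean in affected foxes, and the median difference was -0.0062. It was 0.50 without fox 86, -0.29 without fox 402, -0.44 in males alone and 0.43 within foxes of low 5' actin. That set, described further on, has fox 402 as its only unaffected animal. CTLA4, the inhibitory receptor that competes with CD28, read 4.54, 30.4, 33.4, 25.6 and 33.6 in affected and 79.3, 18.3 and 9.79 in unaffected foxes. Affected foxes other than 19 lay within a narrow band between fox 86 and the remaining unaffected foxes. As with CD3D, setting aside the extremes favours that order. The difference of CTLA4 was -0.15 ± 0.43 (SE). ICOS, a costimulatory receptor of activated and follicular helper T cells, gave 12.3, 36.0, 53.1, 42.8 and 80.8 against 189, 18.9 and 20.8, with the same arrangement. It differed by -0.18 ± 0.58 (SE), or by 0.66 without fox 86 and -0.62 without fox 97. CD28, CTLA4 and ICOS lie next to each other in the fox gene table, and fox 86 was highest and fox 19 lowest for all 3.

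The interleukin receptor chains varied less. IL7R, which T cells need for survival, read 42.9, 92.6, 70.3, 59.8 and 109 in affected and 113, 54.3 and 40.4 in unaffected foxes, a difference of 0.14 ± 0.32 (SE). IL2RG, the common gamma chain, read 16.1, 41.5, 45.2, 37.9 and 41.0 against 62.4, 18.3 and 18.0, a difference of 0.18 ± 0.32 (SE). In both genes fox 86 was highest and foxes 19, 97 and 402 were the lowest, so that the groups overlapped at both ends. IL2RB, the beta chain shared by the IL-2 and IL-15 receptors, gave 46.3, 66.4, 19.3, 37.6 and 45.2 against 62.3, 27.8 and 19.8, and differed by 0.19 ± 0.31 (SE). Its lowest reading was that of affected fox 107, not fox 19. IL2RA, the alpha chain carried by activated and regulatory T cells, read 7.87, 12.9, 38.7, 38.1 and 29.8 against 46.3, 31.3 and 24.6. Affected foxes 19 and 55 were at background, fox 55 in contrast to its high CD3 readings. IL2RA had the smallest unadjusted p of the list, 0.31, with a difference of -0.33 ± 0.31 (SE), which was -0.15 without fox 19 and -0.16 without fox 86.

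The 3 lineage transcription factors did not enter the test. FOXP3, the factor that defines regulatory T cells, read 1.32, 33.2, 10.9, 7.66 and 10.05 in affected and 10.9, 1.35 and 2.87 in unaffected foxes, above background in affected fox 55 alone. GATA3, the factor of type 2 helper cells that keratinocytes also express, was above background on 4 arrays, with signals from 1.24 to 26.1 in affected and from 2.36 to 30.0 in unaffected foxes. TBX21, the factor of type 1 helper cells, was above background on 1 array, that of affected fox 107 at 18.7, and otherwise ran from 1.14 to 8.49. Whether the dog probes of these factors bind the fox transcripts was not tested, and their readings at background have no order.

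Of the 5 cytotoxic genes tested, 4 had a higher and 1 a lower mean in affected foxes, with a median difference of 0.17. That median was 0.59 without fox 86, -0.19 without fox 97 and -0.14 within foxes of low 5' actin, where fox 402 alone was unaffected. GZMA, a granzyme with trypsin-like activity, read 20.5, 43.0, 26.9, 66.5 and 29.4 in affected and 35.1, 12.6 and 48.3 in unaffected foxes. The highest readings were those of females 381 and 402, and fox 86 was in the middle. GZMA differed by 0.17 ± 0.32 (SE) between the disease groups. GZMK, a granzyme of memory-type CD8 T cells, gave 2.86, 65.5, 117, 24.4 and 85.6 against 100.2, 7.70 and 33.6. Foxes 19 and 97 were at background, and affected fox 107 was highest. Its difference was 0.24 ± 0.66 (SE), or 0.83 without fox 86 and -0.32 without fox 97.

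NKG7, a granule membrane protein of cytotoxic cells, read 47.6, 126, 36.0, 50.9 and 73.2 in affected and 109, 26.5 and 46.6 in unaffected foxes. Affected fox 55 was highest, fox 97 lowest, and the difference was 0.16 ± 0.39 (SE). Its other probe sets differed by 0.16 and 0.64, with correlations of 0.79 and 0.84 with the first. KLRD1, the CD94 chain of NK receptors, gave 1.88, 42.1, 34.1, 10.5 and 74.5 against 105, 7.04 and 17.2, with foxes 19, 381 and 97 at background. The KLRD1 difference was -0.12 ± 0.61 (SE). EOMES, a T-box factor of cytotoxic and NK cells, read 21.7, 30.7, 16.3, 21.3 and 35.1 against 42.8, 2.76 and 4.73. Foxes 97 and 402 were at background below every affected fox, and fox 86 was above every affected fox. EOMES had the smallest unadjusted p of the cytotoxic list, 0.18, with a difference of 0.51 ± 0.35 (SE), which was 1.04 without fox 86 and 0.21 without fox 97.

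Unlike GZMA and GZMK, PRF1 and GZMB did not enter the test. PRF1, perforin, was above background on 0 of 8 arrays, with signals of 7.57, 1.14, 1.001, 1.93 and 9.16 in affected and 2.87, 1.16 and 0.585 in unaffected foxes. Binding of its dog probes to the fox transcript was not tested, so these readings give no level of PRF1. GZMB, the granzyme that cleaves caspases, read 1.28, 31.0, 12.3, 7.59 and 16.9 against 14.9, 15.2 and 1.81 and was above background on 4 arrays. GZMB was above background in both groups, in affected foxes 55 and 757 and unaffected foxes 86 and 97. Markers of NK cells, a second source of the killing genes, had 4 of 8 symbols with a probe set and 2 tested, with a summed signal of 64.8 to 97.7 in the affected group and 57.5 to 91.2 in the unaffected group, and 1 of the 4 at background on every array.

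The spread of these genes between foxes was wider than that of the array at large. Over 8 foxes the median SD of the 26 genes was 0.61 on the log2 scale, beside 0.31 for all genes tested. The median distance from the lowest to the highest fox was 1.84, beside 0.91. By list that distance was 1.97 for identity, 1.34 for helper and regulatory and 1.74 for cytotoxic genes. Plasma cell, keratinocyte, pan-leukocyte, neutrophil, macrophage and fibroblast markers had median SDs of 1.02, 0.88, 0.85, 0.80, 0.75 and 0.69. Mast cell, B cell, endothelial and NK cell markers had 0.53, 0.50, 0.41 and 0.36. A wide spread was thus not particular to the 26 genes. The median size of the group difference was 0.17 for the 26 genes and 0.15 for all genes tested.

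A level was computed for each fox as the mean of log2(signal + 16), centred per gene, over the tested genes of a list. For the identity list it was -0.89, 0.43, 0.12, -0.039 and 0.39 in affected and 0.93, -0.50 and -0.44 in unaffected foxes. Fox 86 was at the top, fox 19 at the bottom, and foxes 97 and 402 lay below the 4 remaining affected foxes. Setting aside the extremes favours that order, so it is no sign of a group difference. The group means were 0.0020 ± 0.53 (SD, n = 5) and -0.0033 ± 0.81 (SD, n = 3). The helper and regulatory level was -0.64, 0.10, 0.097, 0.052 and 0.34 against 0.89, -0.33 and -0.52, and the cytotoxic level -0.68, 0.51, 0.12, -0.10 and 0.52 against 0.81, -0.93 and -0.24. In the cytotoxic list unaffected fox 97, not fox 19, was lowest.

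**Figure D4:**
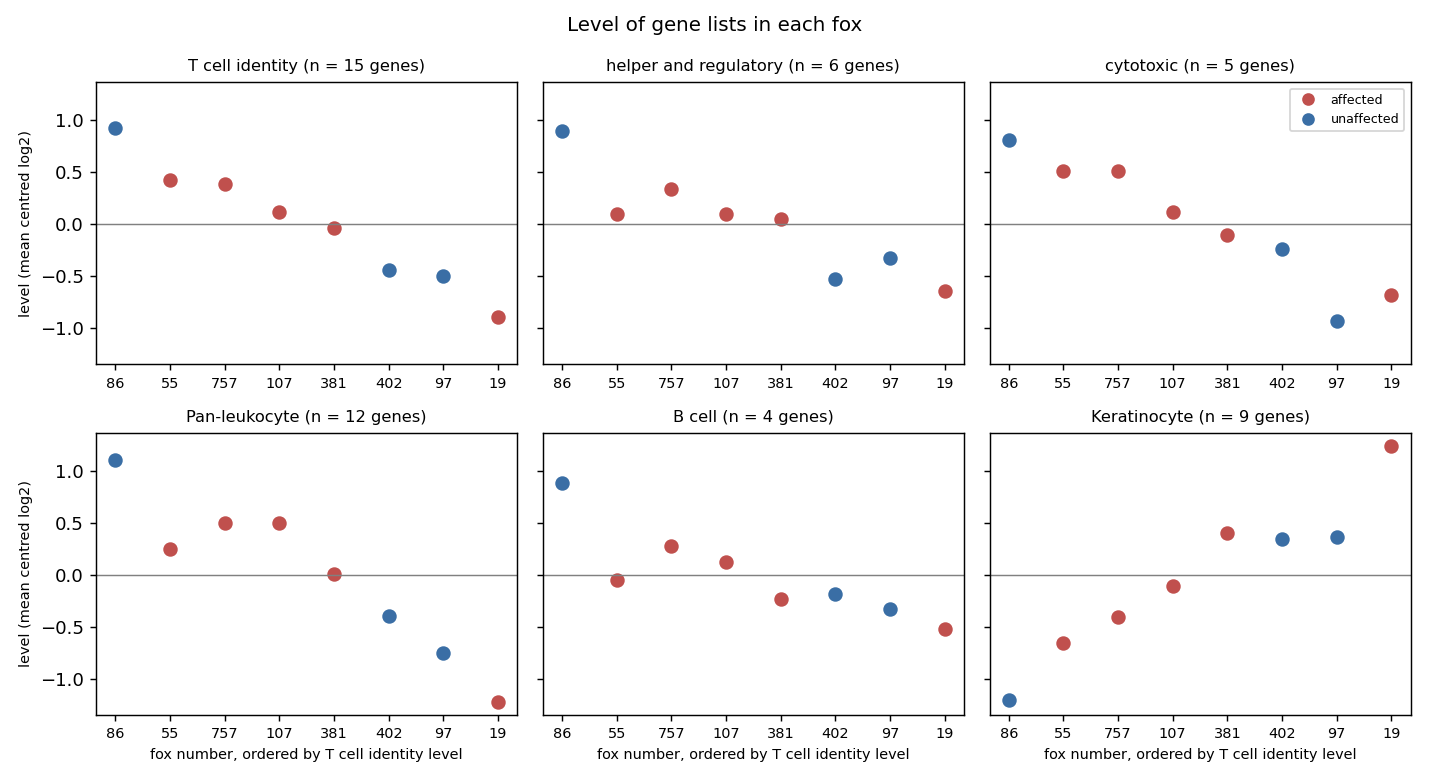
Level (mean of log2(signal + 16) centred per gene, vertical axis) of 6 gene lists in each fox (horizontal axis, in the order of the identity level; red affected, blue unaffected). The 3 lists described here and the pan-leukocyte list run from high in fox 86 to low in foxes 402, 97 and 19, and the keratinocyte list runs the other way.

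Fox 86 read above the gene's own mean in 25 of the 26 genes, foxes 55 and 757 in 23 each, fox 107 in 17 and fox 381 in 12. Foxes 19, 402 and 97 did so in 4, 3 and 1. Fox 86 was the highest fox in 69.2% of the 26 genes and in 17.4% of all genes tested, and fox 19 the lowest in 65.4% and 15.7%. Fox 97 was lowest in 5 of the 26 genes.

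**Figure D5:**
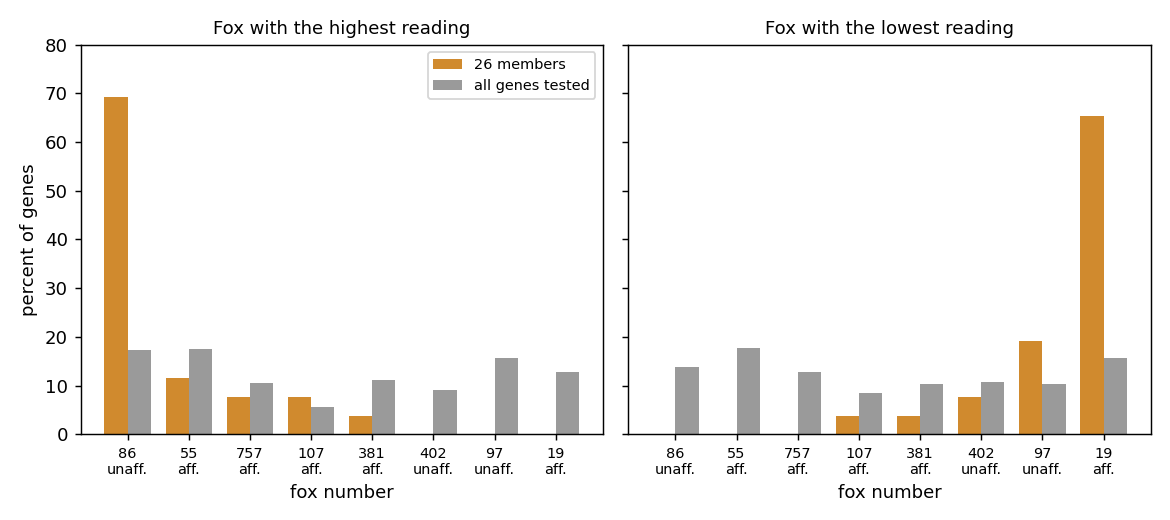
Percent of genes (vertical axis) for which each fox (horizontal axis, in the order of the identity level) gave the highest reading (left) or the lowest (right), for the 26 tested genes and for all genes tested. Fox 86 was highest in 69.2% and fox 19 lowest in 65.4% of the 26 genes, against 17.4% and 15.7% of all genes tested.

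Readings of the 26 genes varied together over the foxes. The median Pearson correlation between pairs of them over 8 foxes was 0.67, and 97.2% of 325 pairs lay above 0, beside a median of 0.0030 for pairs of all genes tested. It was 0.73 among identity, 0.67 among helper and regulatory and 0.53 among cytotoxic genes. Without foxes 86 and 19 the median over the 26 genes was 0.63. These correlations describe 8 arrays that every pair shares.

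How closely a gene followed the level of the other identity genes separated the members further. CD3D had a correlation of 0.99 with that level over 8 foxes, TRAT1 0.98, CD3G 0.96, and CD3E, LCK, CTLA4 and IL2RG 0.95 each. CD27, CD28, CD2 and KLRD1 had 0.94, IL7R 0.93, ICOS 0.92, CD8B 0.87 and GZMK 0.86. The lower values were 0.67 for CD4, 0.52 for IL2RA, 0.51 for IL2RB, 0.49 for LAT, 0.38 for CD6, 0.34 for GZMA and 0.23 for GRAP2. Without foxes 86 and 19 the correlation of CD3D was 0.97 and that of TRAT1 0.94, while CD4 had 0.19, IL2RA -0.31 and GRAP2 0.79.

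Outside the 36 genes, the 15 genes most like the identity level, of 9258 candidates above background on every array, had correlations of 0.97 to 0.98 over 8 foxes. They were PSMB8, CASP12, DRAM2, CIBAR1, VAMP5, TRAF3IP3, ARHGAP15, CXXC5, TNFRSF14, CFP, ELMO2, CD48, STEAP2, CD40 and CORO1A. These are the top of a ranking over 8 foxes, and the strongest negative correlation, -0.98, was of like size. PSMB8, a subunit of the immunoproteasome, read 275 in fox 19, 1093 in fox 86 and 439 and 390 in foxes 97 and 402. CD48, a surface protein of blood cells, and CORO1A, an actin regulator of leukocytes, belong to the pan-leukocyte list. CD40, a receptor of B cells and antigen-presenting cells, read 44.5 in fox 19 and 178 in fox 86.

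Markers of several other cell types, but not all, had the same extremes as these genes over the foxes. The pan-leukocyte list, with all 12 genes tested and none at background on every array, had levels of -1.22, 0.25, 0.50, 0.0069 and 0.50 in affected and 1.11, -0.75 and -0.40 in unaffected foxes. Fox 86 was highest for 12 of its 12 genes and fox 19 lowest for 10. Its summed signal was 1686.5 to 7639 among affected and 2895 to 11250 in unaffected foxes. The keratinocyte list, 9 of 12 genes tested, ran the opposite way at 1.24, -0.65, -0.10, 0.41 and -0.41 against -1.20, 0.36 and 0.35. Fox 19 was highest and fox 86 lowest there. The B cell list (4 of 10 tested, 8 with a probe set) had 0.89 in fox 86 and -0.52 in fox 19, with summed signals of 176 to 264 among affected and 175 to 456 in unaffected foxes. The plasma cell level (5 of 8 tested) was 1.01 in fox 86 and -1.03 in fox 19, with sums of 3913 to 14993 and 4913 to 18232. The macrophage level (10 of 12 tested) was likewise highest in fox 86 at 0.66 and lowest in fox 19 at -0.84, with sums of 2145 to 7021 among affected and 2480 to 7902 among unaffected foxes. Fibroblast (8 of 10 tested) and endothelial (7 of 8 tested) levels were also highest in fox 86, at 0.92 and 0.44, but lowest in fox 402, at -0.81 and -0.37. The neutrophil level (7 of 10 tested) did not follow, with 0.022 in fox 86, -0.15 in fox 19, its highest value of 0.39 in fox 757 and its lowest of -0.60 in fox 97. The mast cell level (4 of 6 tested) was highest in fox 757 at 0.64, with 0.14 in fox 86 and -0.28 in fox 19. The part of these markers in the readings of the T cell and cytotoxic genes was not tested.

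The signal of the 5' beta-actin control, read near the start of the transcript, split the foxes into 4 with high values (86, 97, 107 and 757, 1969 to 3082) and 4 with low values (19, 55, 381 and 402, 1034 to 1184). The mean identity level was 0.23 in the first and -0.23 in the second set. The affected minus unaffected difference of that level was 0.0053 over all foxes, 0.038 within the high and 0.28 within the low set. In the low set fox 402 was the only unaffected animal, so each difference within it rests on her array.

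Between the sexes, with disease as a term in the model, 0 of the 26 genes were called and 0 had an unadjusted p under 0.05, beside 0 percent of all genes called and 1.93 percent at the unadjusted threshold. Of all probe sets 1 was called (0.00388 percent). The mean was higher in females for 10 of the 26 genes, beside 50.2 percent of all genes. GZMA had the largest difference, 0.55 higher in females (unadjusted p = 0.092, adjusted p = 0.9999 in limma), and the ranges of the sexes overlapped, from 12.6 to 43.0 in males and from 29.4 to 66.5 in females.

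The disease difference was then compared between the sexes. Affected minus unaffected, the identity level differed by -0.33 in males and by 0.62 in females, where fox 402 was the unaffected animal. The term for the difference between these effects, female minus male, was positive for 24 of the 26 genes with a median of 0.92, where 53.9% of all genes tested had a positive value and the median was 0.051. In limma 0 of the 26 and 0 percent of all genes were called. At an unadjusted p under 0.05 there were 2, CD247 (2.05 ± 0.64 SE) and GRAP2 (0.99 ± 0.39 SE), beside 2.39 percent of all genes. The unaffected female is a group of 1 and the unaffected males are foxes 86 and 97, so this term cannot be told apart from the readings of those 3 animals.

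Other genes of T cell pathways are given from 6 lists. Of 31 genes of T cell receptor signalling outside the 36, 24 were tested, 12 with a higher and 12 with a lower mean in affected foxes, and 0 were called. PAG1, which anchors the LCK inhibitor CSK at the membrane, differed by 0.47 ± 0.28 (SE), and PLCG1, a phospholipase C, by -0.41 ± 0.25 (SE). Of 22 costimulatory and checkpoint genes 11 were tested, 6 higher and 5 lower in mean, with 0 called. LAG3, an inhibitory receptor, differed by 0.49 ± 0.41 (SE) and CD274, the ligand PD-L1, by 0.34 ± 0.23 (SE). LAG3 was above background on 5 of 8 arrays and highest in unaffected fox 86, with unaffected foxes 97 and 402 at background. In the other direction BTLA differed by -0.29 ± 0.28 (SE) and HAVCR2 by -0.11 ± 0.15 (SE).

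Of 27 helper cytokines 12 were tested, 8 with a higher and 4 with a lower mean, and 0 were called. IL23A, which sustains type 17 helper cells, read from 95.6 to 538 in affected and from 54.2 to 134 in unaffected foxes, a difference of 0.93 ± 0.47 (SE). TNF differed by -0.46 ± 0.23 (SE). Of 25 helper transcription factors and related genes 16 were tested, 5 higher and 11 lower, with 0 called. LEF1, a factor of naive T cells, differed by -0.52 ± 0.33 (SE), with 3 affected foxes at background. In the other direction BCL6 differed by 0.28 ± 0.19 (SE).

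Of 32 genes that recruit T cells 21 were tested, 10 higher and 11 lower in mean, with 0 called. CXCL10, a chemokine that attracts T cells carrying CXCR3, ran from 69.3 to 335 in affected and from 197 to 637 in unaffected foxes and differed by -0.92 ± 0.50 (SE). ICAM1, the adhesion ligand of lymphocyte integrins, differed by 0.82 ± 0.54 (SE), with ranges of 358 to 3079.9 and 431 to 717 that overlapped. Of 18 genes of the killing pathway 14 were tested, 7 higher and 7 lower, with 0 called and a median difference of 0.0050. TNFSF10, the death ligand TRAIL, differed by -0.28 ± 0.23 (SE).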

How the data were processed

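Total RNA from gingiva of 8 foxes was hybridised to 1 dog array each. The deposited table holds a linear intensity per probe set, made with MAS5 according to the labels and, per the submitters' processing notes, with no version; its scaling is not given in these sources. The intensity was used as log2(signal + 16), and arrays were not normalized again. Left out were 111 controls and the dimmest 40% of probe sets by mean (below a signal of about 17.1), leaving 25754 probe sets and 10824 genes with 1 probe set each. Groups were compared with limma 3.58.1 in R 4.3.3 (lmFit, eBayes), with Benjamini-Hochberg adjustment over all probe sets. Background was the 95th percentile of 42 bacterial probe sets on each array. Symbols came from GEO's platform annotation, which gave 1 symbol for 29254, several for 439 and none here for 13231 probe sets. The fit was tested on simulated data.

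Each array is a separate fox by its label. Precision is limited by how few arrays there are, with a median SE of 0.23 for a log2 difference over all probe sets tested. All tested members but GRAP2 had a larger SE than that, up to 0.66 for GZMK. The genes, lists and tests were chosen with earlier results of these data known. Per-fox values were given for the 5 highest means and 3 smallest p-values of each list and for CD3D, CD3E, CD3G, CD4, CD8A, CD8B, FOXP3, GZMA, GZMB and PRF1; other genes were named at up to 2 per list and direction by smallest p, and the 15 most correlated genes by Pearson r. LCK and CTLA4, second probe sets, and single readings of other genes were given beyond that rule after their values were seen. Alternatives covered the offset, quantile normalization, the filter, array weights, sex, males alone, the mean of probe sets, the 5' actin set and each fox left out. Likeness among members and counts of highest and lowest foxes under the alternatives were added after seeing the data.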

Additional observations from a re-analysis of the deposited data

Results flagged for a closer look

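Within the 5 affected foxes, gaps between foxes were measured on the log2(signal + 16) scale for 41 genes, list levels and other probe sets. In 5 of the 41 a fox's gap to its nearest neighbour exceeded 0.710 of the group's range. For a single item chance gives about 1 in 20. The 41 share the same 5 arrays and many vary together, so their count cannot be set against that chance. Fox 19 was lowest for CD3D, with a gap of 0.791 of the range, for TRAT1 (0.721), for CTLA4 (0.800) and for IL2RG (0.802). Their readings in fox 19 were 37.7, 9.66, 4.54 and 16.1, and the next lowest affected readings were 154, 59.7, 25.6 and 37.9. Fox 55 was highest for the second probe set of CD3D, with a gap of 0.942, at 599 where the other affected foxes ran from 8.40 to 13.5. The unaffected group of 3 is too small for this comparison, so fox 86 was not looked at by it.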

How the results depend on the processing

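Under every alternative run, including a threshold of 0.1, 0 of the members and 0 probe sets were called between the disease groups. For GRAP2 the difference stayed above 0, from 0.44 to 1.61 over the alternatives other than leaving out a fox. Fox 86 was highest in 14 (quantile normalization) to 21 members and fox 19 lowest in 17 to 21. The sign of other members often changed: 10 of 26 changed sign without fox 86 and without fox 97, 9 without fox 19 and 7 without fox 402. No paired analysis was possible because the groups share no fox numbers.

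With array weights the differences that turned were CD2 0.33, CD3D 0.35, CD3G 0.15, CD4 0.084, CD28 0.24, CD247 0.070, LCK 0.062, CTLA4 0.17, ICOS 0.30 and KLRD1 0.28. With the 5' actin set as a block they were CD2 0.12, CD3D 0.15, CD28 0.11, CTLA4 0.053, ICOS 0.086 and KLRD1 0.14. Within foxes of high 5' actin they were CD2 0.30, CD3D 0.021, CD4 0.098, IL2RB -0.33, NKG7 -0.10 and KLRD1 0.35. Within those of low 5' actin, where fox 402 alone was unaffected, they were CD3D 0.32, CD3G 0.0051, CD28 0.62, CD247 0.51, CTLA4 0.40, ICOS 0.26, GZMA -0.19 and GZMK -0.33. With the mean of a gene's probe sets they were CD2 0.063, CD3D 0.073, CD4 0.043, LAT -0.034, TRAT1 -0.048 and CTLA4 0.11. In males alone they were CD3E -0.20, CD27 -0.15, LAT -0.10, TRAT1 -0.67, IL2RB -0.050, IL2RG -0.10 and IL7R -0.22. With an offset of 1 they were CD28 0.076, LAT -0.0012 and TRAT1 -0.028, with an offset of 64 TRAT1 -0.019, with sex as a covariate TRAT1 -0.0064, and with quantile normalization CD2 0.0035. The cause was not tested.

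With each fox left out in turn the differences ran from -0.54 to 0.56 for CD2, -0.48 to 0.67 for CD3D, -0.18 to 0.89 for CD3E, -0.75 to 0.46 for CD3G, -0.24 to 0.10 for CD4, -0.067 to 0.41 for CD6, -0.083 to 0.35 for CD8B, -0.14 to 0.52 for CD27, -0.44 to 0.68 for CD28, -0.64 to 0.30 for CD247, -0.87 to 0.40 for LCK, -0.13 to 0.20 for LAT and -0.36 to 0.66 for TRAT1. They ran from -0.53 to 0.41 for CTLA4, -0.62 to 0.66 for ICOS, -0.043 to 0.52 for IL2RB, -0.022 to 0.58 for IL2RG, -0.12 to 0.48 for IL7R, -0.17 to 0.42 for GZMA, -0.32 to 0.83 for GZMK, -0.19 to 0.59 for NKG7 and -0.61 to 0.59 for KLRD1. For CD7 the range was -0.58 to -0.085, for IL2RA -0.47 to -0.15 and for EOMES 0.21 to 1.04. Over the alternatives other than leaving out a fox, the median difference ran from -0.21 to 0.29 over all members, -0.25 to 0.24 for identity, -0.44 to 0.43 for helper and regulatory and -0.14 to 0.29 for cytotoxic genes. Between the sexes 1 probe set was called, or 2 without fox 55, with a range of 1 to 2. Signal over background limits CD5, CD8A, FOXP3, TBX21 and PRF1, which were above it on 0 to 2 arrays.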
